A study of Homo sapiens with 36 samples.

Results

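The genes described here are RN7SL1, RN7SL2, RN7SK, RMRP and RPPH1, which encode the RNA cores of the signal recognition particle, of the 7SK complex, of RNase MRP and of RNase P. They are 5 of the 37549 gene entries in the count table, found by symbol, and all 5 were matched. They were chosen by their measured share of the libraries, which is high and differs between groups, so the levels of these 5 genes are given as descriptions with no test. Tests are given for the genes of their protein partners, of the polymerase that makes them, of other small RNAs and of neighbouring genes. Their values did not choose the 5 members, but these lists were drawn up with earlier results known, the genes named from them were picked partly by how often they were called, and 7SL entries among them can share reads with the members.

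The data are RNA sequencing counts of 36 libraries of rRNA-depleted total RNA from 3 leukaemic B-cell lines, with 12 libraries per line and 3 per group. MEC1 carries mutated p53 and was exposed for 48 h, JVM2 is p53 wild-type and was exposed for 72 h, and EHEB is p53 wild-type and was exposed for 96 h. Each line received the solvent DMSO, the purine analogue fludarabine at 50 µM, the BTK inhibitor ibrutinib at 5 µM or the PI3K delta inhibitor idelalisib at 10 µM. The comparisons with DMSO ask which genes each drug changed in a line. Each line had its own exposure time, so effects of the line and of the time cannot be separated. Nothing in the labels says that the 3 libraries of a group came from separate cultures, so the spread between them may be technical.

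The libraries held between 26590705 and 53538925 counts, with a median of 42114145, and between 19557 and 22708 entries above 0. The library numbers in the labels fall into separate series. In MEC1, DMSO and fludarabine carry numbers 37 to 48 and both kinase inhibitors carry far higher numbers, and the other lines are laid out alike. No DMSO library lies in a series with the kinase inhibitors, so each kinase inhibitor against DMSO cannot be told apart from the series, whereas fludarabine against DMSO and idelalisib against ibrutinib lie within 1 series. All 6 B-cell markers had counts in every library, with a summed level of 640 to 1754 CPM (counts relative to the TMM-scaled total of the library). The 9 markers of other cell types summed to 3.08 to 26.6 CPM, with CD3D, LYZ and HBB at 7 counts or fewer and CD14 at 15 or fewer in every library. The highest count was 1049 for COL1A1, 362 for CD2, 226 for CD3E, 199 for CSF1R and 70 for EPCAM, and their part in the results was not tested. In bulk RNA, fewer cells of a type and less RNA per cell cannot be told apart.

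All 5 RNAs are made by RNA polymerase III, the polymerase of tRNA and 5S ribosomal RNA. The 7SL RNA of RN7SL1 and RN7SL2 is the scaffold of the signal recognition particle (SRP), which binds signal sequences as they leave the ribosome and brings the ribosome to the endoplasmic reticulum. The 7SK RNA holds the kinase P-TEFb (CDK9 with cyclin T) in an inactive complex with HEXIM1, MEPCE and LARP7, and its release lets paused RNA polymerase II proceed into elongation. RPPH1 is the catalytic RNA of RNase P, which trims the 5′ ends of tRNA precursors, and RMRP is the related RNA of RNase MRP, which acts in the maturation of ribosomal RNA and shares most of its proteins with RNase P.

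In GENCODE release 44 (GRCh38) RN7SL1 lies at chr14:49586580-49586878 on the plus strand, is 299 bases long and sits inside the gene RPS29, which is read from the opposite strand. RN7SL2 lies at chr14:49862550-49862849 on the minus strand and is 300 bases long, with the coding gene NEMF 9728 bases away. Reads that lie within an identical stretch cannot be told apart, and read length is not stated. The 2 RNAs match at 295 of 299 aligned bases (98.66%). RN7SL1 matches RN7SL3 at 97.66% of aligned bases, RN7SL5P at 92.71% and RN7SL4P at 89.04%, and each of these is a separate entry of the count table. The split of counts between RN7SL1 and RN7SL2, and between them and the other 7SL entries, is therefore uncertain.

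RN7SK lies at chr6:52995621-52995948 on the plus strand, 328 bases long, with the coding gene GSTA4 316 bases away. Its first 100 bases are shown because they hold all 3 of its GATC motifs (in capitals, at positions 12, 41 and 63). GATC in the first hairpin of 7SK is the known contact of HEXIM1.
RN7SK 1-100: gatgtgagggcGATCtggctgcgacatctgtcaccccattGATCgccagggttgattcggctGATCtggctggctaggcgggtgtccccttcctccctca
The same 4 letters also occur 4 times in each 7SL RNA, so their presence alone marks nothing particular to 7SK, and they do not occur in RMRP or RPPH1. RN7SK matches the pseudogene entry RN7SKP203 at 90.31% of aligned bases.

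RPPH1 lies at chr14:20343075-20343407 on the minus strand, 333 bases long, 207 bases from the start of the coding gene PARP2, which is read the other way. RMRP lies at chr9:35657754-35658017 on the minus strand, 264 bases long, with CCDC107 272 bases away and no overlapping gene. The RMRP sequence is shown because almost no counts were assigned to it. Its base composition (63.3% G and C) is close to that of the 4 abundant members (58.2 to 64.6%).
RMRP: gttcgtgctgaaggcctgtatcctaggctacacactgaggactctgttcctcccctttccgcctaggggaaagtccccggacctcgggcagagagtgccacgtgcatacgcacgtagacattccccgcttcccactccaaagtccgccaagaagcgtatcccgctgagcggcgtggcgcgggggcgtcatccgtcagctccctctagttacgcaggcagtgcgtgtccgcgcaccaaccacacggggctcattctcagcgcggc

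RN7SL1, RN7SL2 and RN7SK were the 3 entries with the highest median share of a library, at 3.84%, 3.45% and 3.16% of all counts, above the translation factor gene EEF1A1 at 1.23%. RPPH1 was the sixth at 0.612%. RN7SL1 held the first rank in 29 of 36 libraries, RN7SK in 4 and RN7SL2 in 3; the 4 with RN7SK first were all 3 fludarabine-treated and 1 idelalisib-treated MEC1 library. RMRP did not match its description as abundant: it had 2 to 27 counts in a library and ranked 13808th at best. RMRP is known as an abundant RNA, so these counts may not stand for its level in the cells, and whether its reads were lost before counting was not tested. Together the 5 members took 6.58 to 19.2% of a library, with a median of 10.7%.

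Within DMSO, EHEB differed from each of the other lines more in RN7SK and RPPH1 than in 7SL. On a scale common to all 36 libraries (CPM after TMM scaling, which sets libraries level on the bulk of genes, divided by length in kb), RN7SL1 reached 116620 ± 17353 in MEC1 (mean ± SD, n = 3), against 146519 ± 11020 in JVM2 and 134098 ± 10645 in EHEB. RN7SK reached 85101 ± 7905 in MEC1, then 110755 ± 6954 in JVM2 and 55382 ± 3002 in EHEB, on the same scale. RPPH1 reached 19651 ± 2419, 21423 ± 1943 and 8885 ± 240 in the same order, and RMRP 1.70 ± 0.260, 1.59 ± 0.407 and 0.514 ± 0.0738. RN7SK was 2.0-fold and RPPH1 2.41-fold higher in JVM2 than in EHEB, with no overlap of libraries. RN7SL1 was 1.09-fold higher in JVM2 than in EHEB with overlapping libraries, and RN7SL2 1.35-fold higher without overlap. Between MEC1 and JVM2 the widest gap was in RN7SL2, which was 0.651-fold in MEC1 without overlap. There RN7SL1 was 0.796-fold and RN7SK 0.768-fold, also without overlap, and RPPH1 0.917-fold. MEC1 and JVM2 overlapped in RPPH1, so these neighbours in the order cannot be separated.

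In MEC1, idelalisib-treated libraries held more RN7SL1, RN7SL2 and RN7SK than any library of the other 3 groups, and more RPPH1 than any DMSO or ibrutinib-treated library. For RPPH1 they overlapped the fludarabine-treated libraries. RN7SL1 took 2.93, 3.60 and 3.87% of the DMSO libraries and 5.69, 5.90 and 6.26% of the idelalisib-treated libraries. RN7SL2 took 2.42, 3.01 and 3.31% under DMSO and 4.69, 4.85 and 5.46% under idelalisib. RN7SK took 2.53, 2.84 and 2.96% under DMSO and 5.35, 6.26 and 6.36% under idelalisib. None of these groups overlap, and the lowest idelalisib-treated library stands well above the highest DMSO library for each gene. RPPH1 took 0.574, 0.664 and 0.714% under DMSO and 1.04, 1.18 and 1.25% under idelalisib, again without overlap. All 5 together took 8.46 to 10.7% of a DMSO library and 17.0 to 19.2% of an idelalisib-treated library.

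The fitted log2 fold change of idelalisib against DMSO in MEC1, on TMM-scaled counts, was 0.88 (SE 0.14) for RN7SL1, 0.88 (SE 0.16) for RN7SL2, 1.21 (SE 0.11) for RN7SK and 0.93 (SE 0.15) for RPPH1. Against ibrutinib, which lies in the same series of libraries, the values were 0.76, 0.81, 0.83 and 0.98. For idelalisib against ibrutinib all 5 members were above without overlap, where 32.8% of 17516 tested genes had groups that do not overlap in either direction; against DMSO it was 4 of 5, beside 64% of genes. The median log2 fold change against DMSO over all genes tested was 0.08. Scaled by library size alone, the changes against DMSO were 0.78, 0.78, 1.11 and 0.83.

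**Figure D1:**
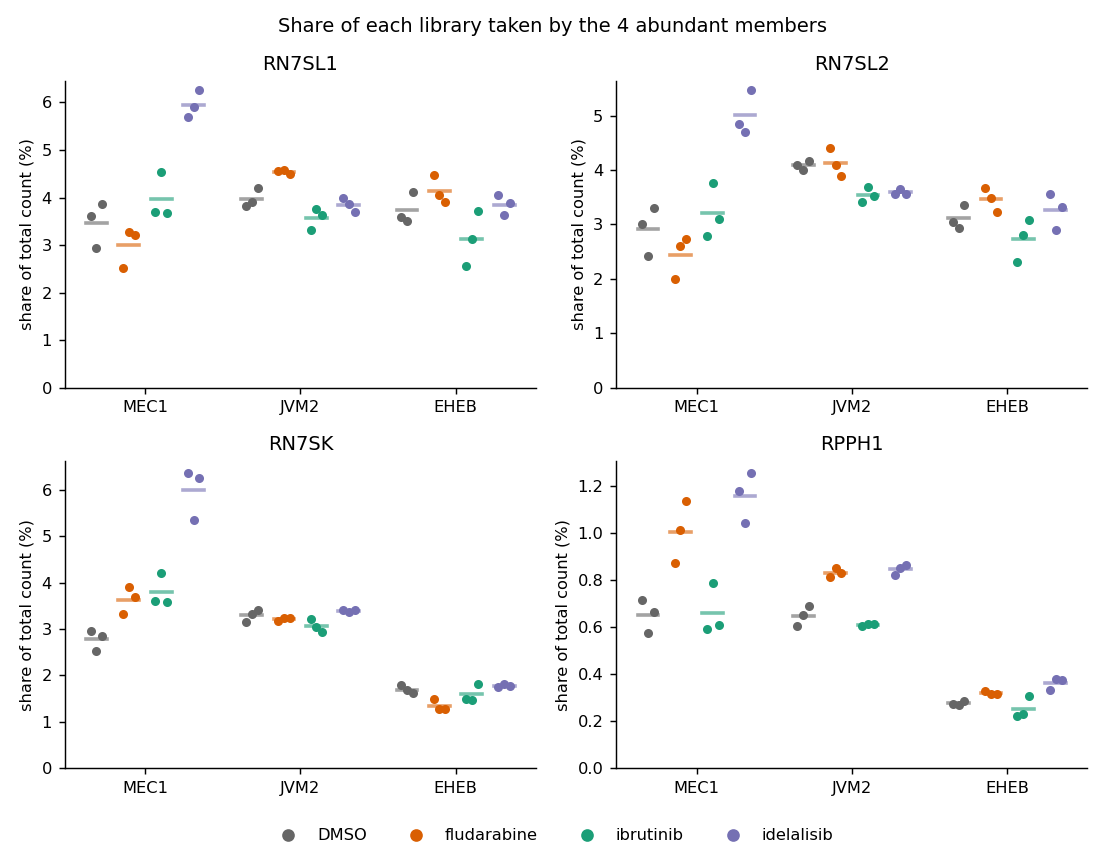
Share of the total count (%) taken by RN7SL1, RN7SL2, RN7SK and RPPH1 in each of the 36 libraries, by line and treatment; each point is a library and each bar the mean of 3. Idelalisib-treated MEC1 libraries sit highest for RN7SL1 (5.69 to 6.26%), RN7SL2 (4.69 to 5.46%) and RN7SK (5.35 to 6.36%). They overlap fludarabine-treated MEC1 libraries for RPPH1, and EHEB libraries sit lowest for RN7SK and RPPH1.

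Under ibrutinib in MEC1 RN7SK was the 1 abundant member above DMSO in every library. RN7SK took 3.58, 3.60 and 4.2% of the ibrutinib-treated libraries, all above the DMSO libraries, with a log2 fold change of 0.38 (SE 0.11). RN7SL1 took 3.68, 3.69 and 4.54% and RN7SL2 2.79, 3.10 and 3.76%, both overlapping DMSO, with log2 fold changes of 0.12 (SE 0.14) and 0.07 (SE 0.16). RPPH1 took 0.592, 0.608 and 0.785%, overlapping DMSO, with a log2 fold change of -0.05 (SE 0.15). On the TMM scale 2 of 5 members did not overlap DMSO, RN7SK above and RMRP below, beside 57.3% of genes tested.

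Under fludarabine in MEC1, 7SL lay on one side of DMSO and RN7SK and RPPH1 on the other. RN7SL1 took 2.51, 3.21 and 3.27% of the fludarabine-treated libraries and RN7SL2 2.0, 2.60 and 2.74%, lower on average than DMSO but overlapping it. RN7SK took 3.32, 3.69 and 3.90%, above every DMSO library. RPPH1 took 0.871, 1.01 and 1.14%, also above every DMSO library.
How far each stood from DMSO depended on the scale. The TMM factors of these libraries were 1.14 to 1.15, against 0.950 to 0.977 under DMSO, which lowers every TMM-scaled value relative to the share. The TMM-scaled log2 fold change was -0.46 (SE 0.14) for RN7SL1 and -0.50 (SE 0.16) for RN7SL2, both below DMSO without overlap, while RN7SK was at 0.14 (SE 0.11) with overlap, and RPPH1 at 0.38 (SE 0.15) without overlap. By library size alone the 4 values were -0.21, -0.25, 0.39 and 0.63. On the TMM scale 4 of 5 members did not overlap DMSO, beside 55.8% of genes tested.

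In JVM2 the differences were small. Under fludarabine RN7SL1 took 4.49, 4.56 and 4.57% against 3.82, 3.90 and 4.21% under DMSO, above without overlap, yet its TMM-scaled log2 fold change was -0.01 (SE 0.06). RN7SL2 took 3.90, 4.08 and 4.4% against 4.0, 4.10 and 4.17% under DMSO, with a TMM-scaled log2 fold change of -0.18 (SE 0.06). RN7SK took 3.16, 3.23 and 3.24% against 3.16, 3.33 and 3.40%, with a TMM-scaled value of -0.24 (SE 0.05). RPPH1 took 0.811, 0.828 and 0.851% against 0.603, 0.651 and 0.688%, above without overlap as a share but not on the TMM scale, where it was at 0.16 (SE 0.06). On the TMM scale 3 of 5 members did not overlap DMSO, all below it, beside 57.8% of genes tested.

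Under ibrutinib in JVM2 all 5 members were below DMSO without overlap on the TMM scale, beside 44.5% of genes tested in either direction. RN7SL1 took 3.32, 3.63 and 3.75%, RN7SL2 3.41, 3.53 and 3.70%, RN7SK 2.92, 3.03 and 3.22% and RPPH1 0.605, 0.612 and 0.612% of these libraries. The log2 fold changes of these 4 lay between -0.28 and -0.17, and as a share RN7SK and RPPH1 overlapped DMSO. Under idelalisib RN7SL2 took 3.55, 3.56 and 3.66%, below DMSO without overlap on both scales, with a log2 fold change of -0.29 (SE 0.06). RPPH1 took 0.821, 0.850 and 0.866%, above DMSO without overlap on both scales, with a log2 fold change of 0.28 (SE 0.06). Here 4 of 5 members did not overlap DMSO, RPPH1 above and RN7SL1, RN7SL2 and RMRP below, beside 56.3% of genes tested. Idelalisib against ibrutinib gave 0.45 (SE 0.06) for RPPH1 and 0.12 (SE 0.05) for RN7SK, and 3 of 5 members did not overlap, beside 39% of genes tested.

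In EHEB the fludarabine-treated libraries held less RN7SK than DMSO. It took 1.62, 1.67 and 1.78% of the DMSO libraries and 1.26, 1.28 and 1.48% of the fludarabine-treated libraries, below DMSO without overlap on both scales, with a log2 fold change of -0.44 (SE 0.11). RN7SL1 took 3.91, 4.05 and 4.46% against 3.51, 3.60 and 4.11%, and RN7SL2 3.23, 3.49 and 3.66% against 2.94, 3.04 and 3.37%, both overlapping DMSO, with log2 fold changes of 0.04 (SE 0.13) and 0.05 (SE 0.12). RPPH1 took 0.313, 0.316 and 0.327% against 0.269, 0.273 and 0.286%, with a log2 fold change of 0.10 (SE 0.12). In this comparison 3 of 5 members did not overlap DMSO, RPPH1 above and RN7SK and RMRP below, beside 51.8% of genes tested. RMRP is counted here although it was not among the genes tested in EHEB.

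Under ibrutinib the EHEB libraries spread widely, and RN7SL1 took 2.55, 3.13 and 3.71%, overlapping DMSO. The log2 fold changes ran from -0.35 (SE 0.13) for RN7SL1 to -0.18 (SE 0.11) for RN7SK, and 1 member, RMRP, at 3 to 4 counts, did not overlap DMSO, beside 37.5% of genes tested. Under idelalisib RN7SL1, RN7SL2 and RN7SK lay between -0.05 and -0.03 on the log2 scale and overlapped DMSO. RPPH1 took 0.331, 0.375 and 0.381%, above DMSO without overlap, with a log2 fold change of 0.29 (SE 0.12). It was the 1 member of 5 that did not overlap, beside 48.8% of genes tested, and it was again the 1 member of 5 without overlap for idelalisib against ibrutinib, at 0.51 (SE 0.12), beside 33.1% of genes tested.

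**Figure D2:**
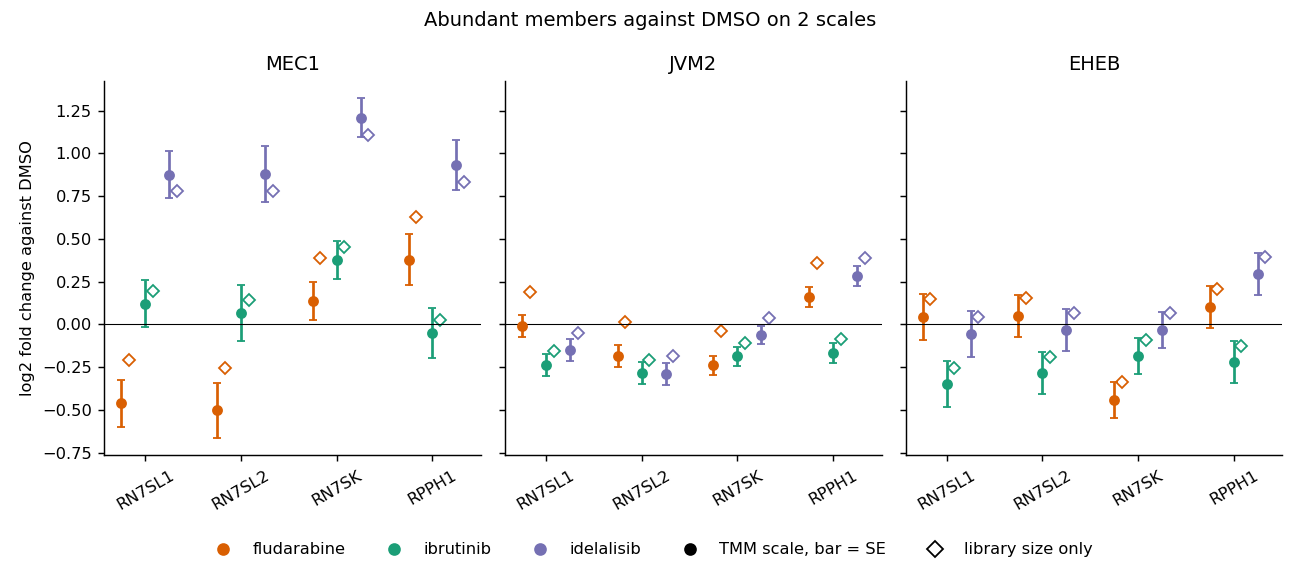
Log2 fold change of each drug against DMSO for the 4 abundant members in each line, as filled points with standard errors on the TMM scale and as open diamonds by library size alone. In MEC1 the 4 idelalisib points lie between 0.88 and 1.21 on the TMM scale, and for fludarabine the diamonds lie above the filled points in all 3 lines.

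Ratios between members within a library do not depend on any scaling. The ratio of both 7SL entries to RN7SK was 2.12, 2.24 and 2.52 in the MEC1 DMSO libraries and 1.36, 1.5 and 1.62 under fludarabine, below DMSO without overlap. In JVM2 and EHEB the order was the opposite. In JVM2 the ratio was 2.37, 2.46 and 2.51 under DMSO and 2.60, 2.67 and 2.83 under fludarabine. In EHEB it was 3.73, 3.86 and 4.61 under DMSO and 5.49, 5.66 and 5.89 under fludarabine. In both lines fludarabine lay above DMSO without overlap. The lower ratio in MEC1 was not particular to fludarabine. It was below DMSO without overlap there under ibrutinib (0.824-fold of the mean DMSO ratio) and idelalisib (0.801-fold) too. The same held for idelalisib in JVM2 (0.897-fold), while ibrutinib in JVM2 and both kinase inhibitors in EHEB overlapped DMSO.
The ratio of RN7SK to RPPH1 was below DMSO under fludarabine in each line, without overlap. It was 3.24, 3.81 and 3.86 against 4.14, 4.28 and 4.41 in MEC1. In JVM2 it was 3.81, 3.90 and 3.90 against 4.95, 5.11 and 5.24. In EHEB it was 4.0, 4.09 and 4.52 against 5.67, 6.23 and 6.54. Under idelalisib it lay above DMSO in MEC1, at 4.99, 5.14 and 5.39. It lay below DMSO in JVM2, at 3.93, 3.96 and 4.14, and in EHEB, at 4.71, 4.77 and 5.24. Ibrutinib-treated MEC1 libraries also lay above DMSO without overlap, at 1.35-fold of the mean DMSO ratio. In JVM2 and EHEB ibrutinib overlapped DMSO.

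**Figure D3:**
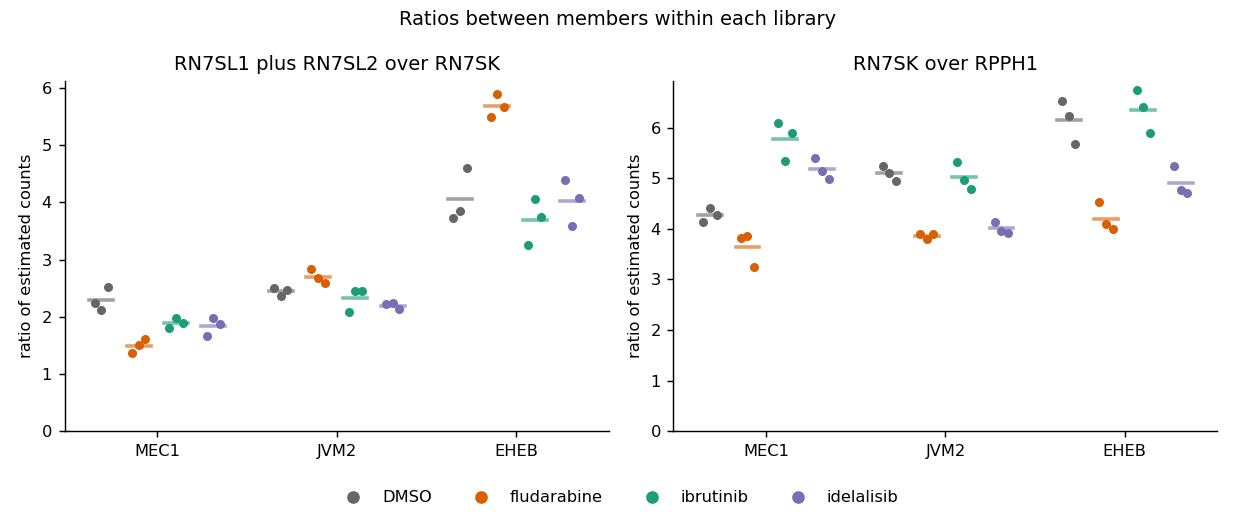
Ratios of estimated counts within each of the 36 libraries, with RN7SL1 plus RN7SL2 over RN7SK on the left and RN7SK over RPPH1 on the right; each point is a library and each bar the mean of 3. The left ratio is highest in fludarabine-treated EHEB (5.49 to 5.89) and lowest in fludarabine-treated MEC1 (1.36 to 1.62).

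RN7SL1 and RN7SL2 stayed close to each other, with a ratio of 0.932 to 1.32 over all libraries. It was lower in JVM2 under DMSO (0.932 to 1.01) than in MEC1 (1.17 to 1.21) and EHEB (1.18 to 1.22) under DMSO. The table holds 680 entries named RN7SL, of which 635 had counts, and the 2 members gave 81.4 to 87.8% of all 7SL counts. RN7SL4P was the largest of the rest, with 143973 to 459594 counts. Of 294 RN7SK entries 254 had counts, and RN7SK itself gave 90.7 to 92.7% of them. Summing each family gave log2 changes that differed from those of the members by less than the spread between replicates in all 24 cases compared. Since the members make up most of each sum, this could hardly be otherwise and is no check on the members.

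RMRP is described by its counts because they are so few. MEC1 libraries had 14, 21 and 22 counts under DMSO, 15, 16 and 19 under ibrutinib and 18, 24 and 27 under idelalisib, but 3, 4 and 4 under fludarabine. In JVM2 it had 15, 15 and 18 counts under DMSO, 9, 9 and 12 under fludarabine, 9, 11 and 14 under ibrutinib and 6, 7 and 9 under idelalisib. In EHEB every library had 2 to 7 counts, and the gene did not pass the filter on low counts. The MEC1 fludarabine libraries stand below all other MEC1 libraries, with a fitted log2 fold change of -2.09 (SE 0.39). RPPH1 stood above DMSO in the same comparison. Counts this low limit every statement on RMRP.

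**Figure D4:**
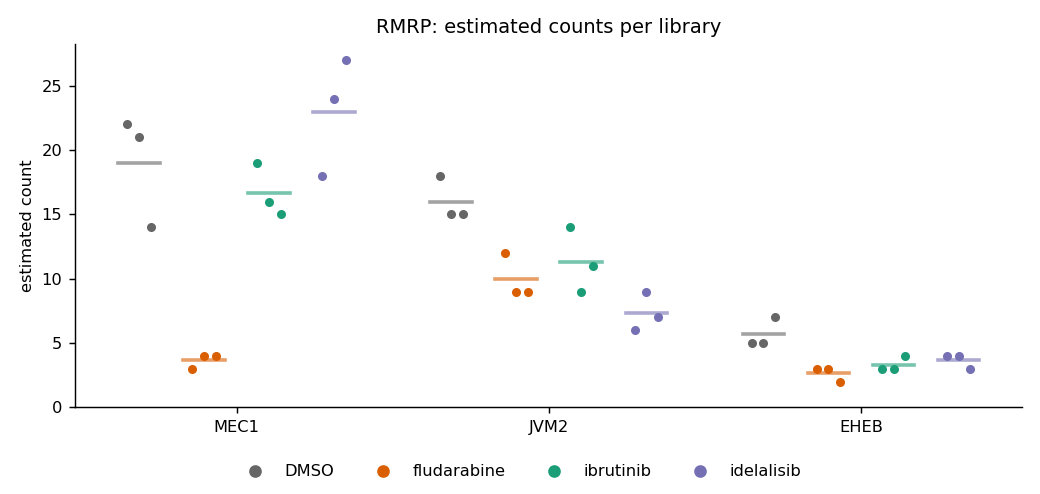
Estimated counts of RMRP in each of the 36 libraries, by line and treatment; each point is a library and each bar the mean of 3. No library exceeds 27 counts, and the fludarabine-treated MEC1 libraries sit at 3 or 4.

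The gene whose level followed each 7SL member most closely was another 7SL entry. After subtraction of the line means, the log2 CPM of RN7SL4P had a Pearson r of 0.92 with RN7SL1 and 0.94 with RN7SL2 over 36 libraries, the highest among 12122 genes compared. RN7SL3 followed at 0.90 and 0.91, then RN7SL674P at 0.89 with RN7SL1 and GAS5, a host gene of small nucleolar RNAs, at 0.90 with RN7SL2. For RN7SK they were RN7SKP203 (0.95), RN7SKP71 (0.95) and SCARNA10, a small Cajal body RNA (0.93), and for RPPH1 they were RN7SL5P (0.83), RN7SKP203 (0.80) and RN7SKP255 (0.79). RMRP, the low member, stood with RSL24D1 (0.92), ZNRD1 (0.91) and RPL7P1 (0.90). Within single lines r was highest in MEC1 for each of these pairs, and some pairs were weak elsewhere. Within EHEB alone the r of RMRP with ZNRD1 was 0.26. Within JVM2 the r of RN7SL3 was 0.34 with RN7SL1 and 0.45 with RN7SL2, against 0.97 with each in MEC1. The 3 genes named for RPPH1 had an r of 0.44 to 0.54 in EHEB, against 0.91 to 0.94 in MEC1. RN7SKP203 and RN7SKP71 kept an r of 0.90 or more with RN7SK in each line. Family entries share sequence and hence reads with the members, and all values share the scaling factor of their library. Among the members, r was 0.98 for RN7SL1 with RN7SL2, 0.76 and 0.77 for RN7SK with each 7SL gene, 0.70 for RN7SK with RPPH1 and 0.11 for RMRP with RPPH1.

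The genes next to the members were examined because their reads could reach the members' entries. In MEC1 under DMSO RPS29 stood at 223 CPM beside 36120 for RN7SL1, and PARP2 at 40.5 beside 6778 for RPPH1. NEMF stood at 30.8 beside 30369 for RN7SL2 and GSTA4 at 0.723 beside 28911 for RN7SK. CCDC107 stood at 6.20 beside 0.464 for RMRP. Whether reads of these genes reached the members' entries was not tested. PARP2, which starts 207 bases from RPPH1, was lower in MEC1, at -0.76 under ibrutinib (SE 0.12, edgeR adjusted p = 0.000241) and -0.93 under idelalisib (SE 0.12, edgeR adjusted p = 4.16e-05), while RPPH1 was at -0.05 and 0.93. RPS29, a protein of the small ribosomal subunit whose gene contains RN7SL1, fell in MEC1 under fludarabine by 1.18 (SE 0.10, edgeR adjusted p = 3.85e-06) and rose under idelalisib by 1.02 (SE 0.10, edgeR adjusted p = 5.92e-06), in the same direction as RN7SL1. CCDC107, next to RMRP, was at -0.74 (SE 0.16, edgeR adjusted p = 0.00301) under fludarabine in MEC1, where RMRP was also below DMSO. NEMF, near RN7SL2, was at 0.39 (SE 0.08, edgeR adjusted p = 0.00184) under ibrutinib and 0.22 (SE 0.08, edgeR adjusted p = 0.0307) under idelalisib in MEC1. In JVM2 NEMF was at 0.47 under fludarabine, 0.30 under ibrutinib and 0.43 under idelalisib (edgeR adjusted p = 0.00154, 0.0288 and 0.00287). RN7SL2 was at -0.18, -0.28 and -0.29 in these JVM2 comparisons. NEMF was not called in EHEB or under fludarabine in MEC1. GSTA4, near RN7SK, was not called in MEC1 and was at -0.55 (SE 0.13, edgeR adjusted p = 0.00544) under idelalisib in JVM2. In JVM2 under fludarabine RPS29 fell by 0.75 (SE 0.06, edgeR adjusted p = 3.8e-06) while RN7SL1 was at -0.01. Whether strand was used in counting is not given in the sources used here, so reads of RN7SL1 and RPS29 cannot be told apart where they overlap.

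The protein partners were tested over 5 lists with 65 genes in all, each of which passed the filter on low counts in each line. A gene was called at an adjusted p under 0.05. Under fludarabine 17 partner genes were higher and 16 lower in MEC1, beside 21.2% and 22.7% of all 17516 genes tested. In JVM2 19 were higher and 13 lower, beside 23.9% and 23.3% of 17508 genes, and in EHEB 19 and 5, beside 18.4% and 19.2% of 17748 genes. Under ibrutinib 21 were higher and 17 lower in MEC1 (23.7% and 23.9% of genes), 8 and 10 in JVM2 (14.5% and 15%), and 12 and 3 in EHEB (8.5% and 11.2%). Under idelalisib 20 were higher and 24 lower in MEC1 (27.6% and 27.4% of genes), 13 and 19 in JVM2 (21.6% and 22.6%), and 3 and 10 in EHEB (15.1% and 18.2%).
Idelalisib against ibrutinib gave 3 higher and 11 lower in MEC1 (6.01% and 9.37% of genes), 1 and 6 in JVM2 (8.21% and 10.5%), and 0 and 13 in EHEB (6.77% and 9.09%).

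The split into higher and lower moved with the scale. By library size alone the counts under fludarabine were 28 higher and 3 lower in MEC1, 31 and 6 in JVM2 and 25 and 3 in EHEB. Under ibrutinib they were 15 and 9 in JVM2 and 19 and 2 in EHEB, and under idelalisib 19 and 12 in JVM2 and 8 and 5 in EHEB. For idelalisib against ibrutinib they were 0 and 25 in MEC1 and 2 and 4 in JVM2. This scale moves the median log2 fold change of all genes tested by 0.249 for fludarabine in MEC1 and by 0.199 in JVM2. The changes of partner genes below are on the TMM scale, and the median of all genes on that scale stayed within 0.0807 of 0. Some counts also fell when a single library was left out, which leaves fewer replicates as well. For ibrutinib in EHEB 15 genes were called, and leaving out any 1 of the 6 libraries gave 5 to 8. For idelalisib against ibrutinib in EHEB 13 were called, and any 1 of the 6 left out gave 2 to 7. In MEC1 the 14 genes of that comparison became 5 or 8 without the first or last library, by number, of either drug. In JVM2 the 7 genes became 2 or 4 without the middle or last idelalisib library, and 4 without the middle ibrutinib library. Counts of calls per gene below are followed by how many held in each alternative analysis and with each library left out. The 9 comparisons with DMSO are not independent repeats, since the 3 drugs of a line share its 3 DMSO libraries. Those of the kinase inhibitors also differ from DMSO in the series of library numbers.

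**Figure D5:**
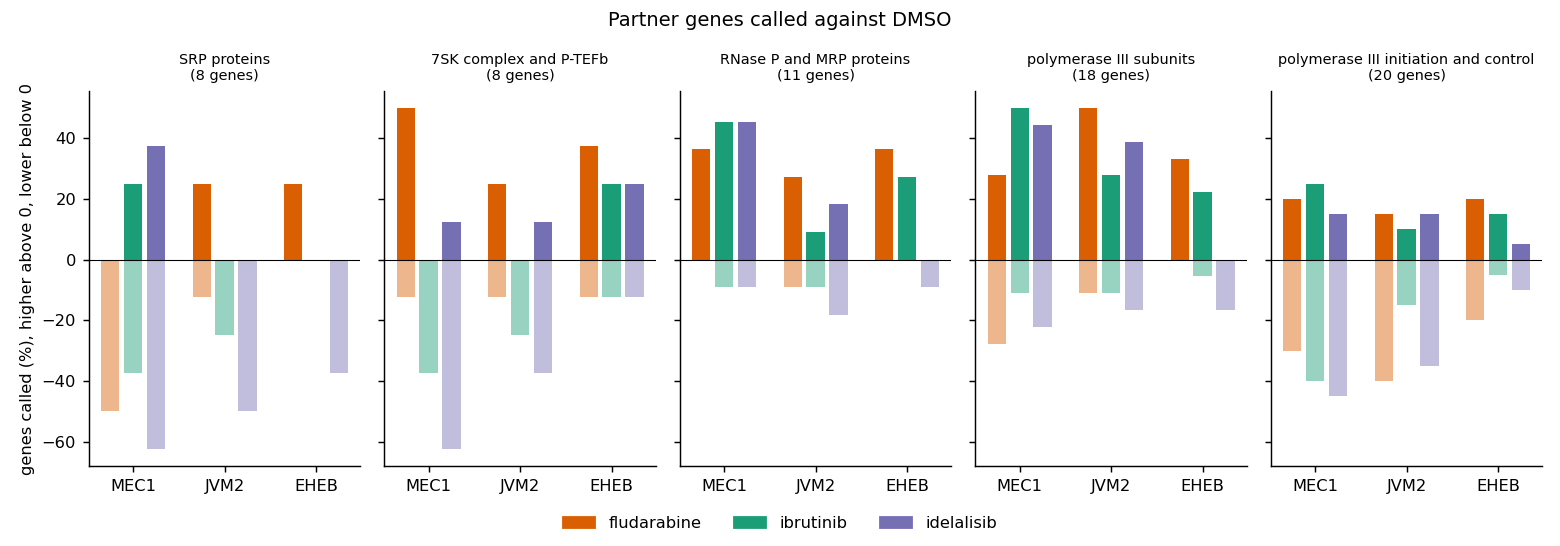
Percent of the genes of each protein list called against DMSO at an adjusted p under 0.05 (edgeR), with genes called higher above 0 and genes called lower below 0 in paler bars, by line and drug. Among the 8 SRP proteins none was called higher under idelalisib in JVM2 or EHEB, while 3 were in MEC1, and 4 of 11 RNase P and MRP proteins were called higher under fludarabine in MEC1 and in EHEB. Of all genes tested, 21.6% were called higher under idelalisib in JVM2, 15.1% in EHEB and 27.6% in MEC1. Under fludarabine it was 21.2% in MEC1 and 18.4% in EHEB.

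The SRP list holds the 6 proteins that bind 7SL and the 2 subunits of the receptor at the endoplasmic reticulum. In idelalisib-treated MEC1, where 7SL was highest, 3 of 8 were higher and 5 lower, beside 27.6% and 27.4% of all genes. SRP72, which binds 7SL together with SRP68, was lower in 7 of 9 comparisons with DMSO, and all 7 calls held. In MEC1 its level went from 248 ± 10.5 CPM under DMSO to 130 ± 2.92 under fludarabine (log2 fold change -0.93, SE 0.06, edgeR adjusted p = 8.81e-07). It was also lower under idelalisib, by 0.37 in MEC1 and 0.59 in JVM2. SRPRA, the receptor subunit that docks the particle, was lower in 6 comparisons, of which 4 held, and higher in 1, with -0.56 (SE 0.07, edgeR adjusted p = 2.78e-05) under idelalisib in MEC1 and -0.61 (SE 0.08, edgeR adjusted p = 9.32e-05) in JVM2. SRP54, the GTPase that binds the signal sequence, was higher under fludarabine in JVM2 by 0.24 (edgeR adjusted p = 0.00393) and in EHEB by 0.30 (edgeR adjusted p = 0.00104), and lower under idelalisib in MEC1 by 0.36 (edgeR adjusted p = 0.00288).

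In the 7SK list, HEXIM1, the inhibitor of P-TEFb that 7SK brings to the kinase, was higher under fludarabine in each line, and all 3 calls held. The log2 fold change was 1.02 (SE 0.07, edgeR adjusted p = 1.13e-06) in MEC1, 0.53 (SE 0.06, edgeR adjusted p = 1.9e-05) in JVM2 and 0.53 (SE 0.06, edgeR adjusted p = 2.09e-05) in EHEB. RN7SK itself was at 0.14, -0.24 and -0.44 in the same comparisons on the TMM scale. Under idelalisib HEXIM1 was at -0.29 in MEC1 (edgeR adjusted p = 0.00521), a call lost when genes under a mean of 5 CPM were left out, and higher in EHEB by 0.31 (edgeR adjusted p = 0.00143). MEPCE, which caps the 5′ end of 7SK, fell in MEC1 under idelalisib by 1.15 (SE 0.14, edgeR adjusted p = 3.1e-05), the group in which RN7SK was highest, and was lower there than under ibrutinib by 0.66 (edgeR adjusted p = 0.00893). LARP7, which holds the 3′ end of 7SK, was higher in 2 comparisons, at 0.36 under idelalisib in JVM2 (edgeR adjusted p = 0.028) and 0.41 under fludarabine in EHEB (edgeR adjusted p = 0.0236). The first call was lost without the first idelalisib library or either of the last 2 DMSO libraries (adjusted p up to 0.11), and the second without any of 3 of the 6 libraries (adjusted p up to 0.0991). In all, 4 of 8 were higher and 1 lower under fludarabine in MEC1, beside 21.2% and 22.7% of all genes. Under idelalisib in MEC1 1 was higher and 5 lower, beside 27.6% and 27.4%.

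Under fludarabine the 11 proteins of RNase P and RNase MRP were called no more often than all genes, and most calls were higher. There 4 were higher and 0 lower in MEC1, 3 and 1 in JVM2, and 4 and 0 in EHEB. Called in either direction were 36.4% of the list in each line. Of all genes, 21.2% were called higher and 22.7% lower in MEC1, 23.9% and 23.3% in JVM2, and 18.4% and 19.2% in EHEB. Under idelalisib 5 of the 11 proteins were higher and 1 lower in MEC1, 2 and 2 in JVM2 and 0 and 1 in EHEB. Under ibrutinib it was 5 and 1, 1 and 1, and 3 and 0 in the same order of lines. For the other comparisons the shares of all genes called are those given above for the 65 genes. RPP40, a subunit of both enzymes, was higher in 5 comparisons, of which 4 held, with 0.75 (SE 0.15, edgeR adjusted p = 0.00141) under idelalisib in MEC1 and 0.84 (SE 0.21, edgeR adjusted p = 0.00868) under fludarabine in EHEB. POP1, the largest shared subunit, was higher by 0.91 (SE 0.22, edgeR adjusted p = 0.00583) under ibrutinib in MEC1 and by 0.57 (SE 0.07, edgeR adjusted p = 9.61e-05) under fludarabine in EHEB. RPP21, a subunit of RNase P, was lower in 5 comparisons, of which 4 held, with -0.56 in MEC1 under each kinase inhibitor and -0.91 (SE 0.21, edgeR adjusted p = 0.00461) under idelalisib in JVM2. RPPH1 stood above DMSO under idelalisib in both of these lines.

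Among the 18 subunits of RNA polymerase III, 5 were higher and 5 lower under fludarabine in MEC1, 9 and 2 in JVM2 and 6 and 0 in EHEB. Under ibrutinib it was 9 and 2 in MEC1, 5 and 2 in JVM2 and 4 and 1 in EHEB, and under idelalisib 8 and 4, 7 and 3, and 0 and 3. Idelalisib against ibrutinib gave 1 and 4 in MEC1, 0 and 1 in JVM2 and 0 and 6 in EHEB. The shares of all genes called in each comparison are those given above for the 65 genes. POLR3B, the second largest subunit, was higher in 8 of 9 comparisons, and all 8 calls held. Its log2 fold change was 1.17 (SE 0.12, edgeR adjusted p = 1.78e-05) under ibrutinib in MEC1 and 1.38 (SE 0.14, edgeR adjusted p = 1.73e-05) under idelalisib in JVM2, where RN7SL2 was below DMSO. POLR3C was also higher in 8 comparisons, of which 3 held, by 0.46 (SE 0.07, edgeR adjusted p = 0.000235) under idelalisib in MEC1. POLR2L, shared by all 3 nuclear polymerases, was higher in 7, of which 5 held, by 0.93 (SE 0.09, edgeR adjusted p = 1.43e-05) under fludarabine in MEC1.

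Of the 20 genes of polymerase III initiation and control, 3 were higher and 9 lower under idelalisib in MEC1, beside 27.6% and 27.4% of all genes. SNAPC4, a subunit of the complex that binds the upstream promoter element of RN7SK, RPPH1 and RMRP, was higher in 8 of 9 comparisons, of which 5 held, by 0.67 (SE 0.07, edgeR adjusted p = 1.61e-05) under ibrutinib in MEC1. SNAPC3 of the same complex was lower in 7, of which 2 held, by 0.43 (SE 0.07, edgeR adjusted p = 0.000981) under ibrutinib in EHEB. BRF2, the initiation factor of these upstream promoters, was lower in each JVM2 comparison with DMSO, with -0.77 (SE 0.10, edgeR adjusted p = 0.00014) under idelalisib. BRF1, its counterpart at internal promoters, was lower in MEC1 under idelalisib by 0.54 (SE 0.08, edgeR adjusted p = 0.00013). MAF1, the repressor of polymerase III, fell in MEC1 under ibrutinib by 0.39 (SE 0.07, edgeR adjusted p = 0.00121) and under idelalisib by 0.46 (SE 0.07, edgeR adjusted p = 0.000274), and in JVM2 under fludarabine by 0.55 (SE 0.11, edgeR adjusted p = 0.0018). GTF3A, which binds the 5S RNA genes, rose in MEC1 under idelalisib by 0.57 (SE 0.09, edgeR adjusted p = 0.00017) and fell under fludarabine in EHEB by 0.29 (SE 0.06, edgeR adjusted p = 0.00456).

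Other small RNAs made by polymerase III were mostly near absent from the counts. Of 19 listed entries 8 passed the filter in MEC1 and JVM2 and 6 in EHEB, and RNY5 was not analysed here. RN7SL3 had a median of 27154 counts and RNY3, a Y RNA, 208, whereas VTRNA1-1, a vault RNA, had 3 and the 5S entries RNA5S1 and RNA5S17 had 0 in every library. In MEC1 under idelalisib 5 of the 8 tested were higher and 0 lower, beside 27.6% and 27.4% of all genes. Their median log2 fold change was 0.82, beside 0.08 over all genes. RN7SL3, which can share reads with the members and is not independent of them, rose there by 0.82 (SE 0.20, edgeR adjusted p = 0.00488), RNY3 by 0.81 (SE 0.18, edgeR adjusted p = 0.0025, but 0.12 in the joint fit of 36 libraries) and RNU6-1, a U6 spliceosomal RNA, by 1.32 (SE 0.41, edgeR adjusted p = 0.0184), the last of these lost without any of 4 of the 6 libraries (adjusted p up to 0.071). Under fludarabine in MEC1 RNY3 fell by 1.72 (SE 0.19, edgeR adjusted p = 3.11e-05).

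Small structured RNAs made by polymerase II had medians on the same side of 0 as 7SL under fludarabine and idelalisib in MEC1. Of 32 tested, 14 were higher and 8 lower under idelalisib, beside 27.6% and 27.4% of all genes. Their median log2 fold change was 0.62, beside 0.08 over all genes. Under fludarabine 2 were higher and 18 lower (21.2% and 22.7% of all genes), with a median of -0.53. Under ibrutinib 5 were higher and 9 lower (23.7% and 23.9% of all genes), with a median of -0.05. The median over all genes was 0.06 under each of these drugs. Idelalisib against ibrutinib gave 17 higher and 0 lower (6.01% and 9.37% of all genes). SCARNA13, a small Cajal body RNA, rose by 1.52 (SE 0.16, edgeR adjusted p = 9.58e-06) under idelalisib in MEC1 and fell by 0.68 (SE 0.07, edgeR adjusted p = 2.22e-05) in JVM2. SNORD3A, the U3 RNA of ribosomal RNA processing, was lower in 6 of 9 comparisons, of which 3 held, by 2.21 (SE 0.13, edgeR adjusted p = 3.7e-07) under fludarabine and by 1.06 (SE 0.13, edgeR adjusted p = 2.77e-05) under idelalisib in MEC1. RNU5F-1, a U5 spliceosomal RNA, was at -1.23 (SE 0.24, edgeR adjusted p = 0.00143) under fludarabine and 1.12 (SE 0.22, edgeR adjusted p = 0.00131) under idelalisib in MEC1. Of 30 tested in JVM2, 1 was higher and 9 lower under fludarabine (23.9% and 23.3% of all genes). Under idelalisib it was 3 and 4 (21.6% and 22.6%). Of 29 tested in EHEB, 0 were higher and 5 lower under fludarabine (18.4% and 19.2%). Under idelalisib it was 1 and 6 (15.1% and 18.2%). In MEC1 under fludarabine RN7SK and RPPH1 lay at 0.14 and 0.38, on the other side of 0 from the median of this list. The part of small RNA recovery in the members' levels was not tested.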

How the data were processed

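Total RNA of 3 cell lines was depleted of rRNA and sequenced in 36 libraries. Per the labels and the study's methods, the authors trimmed reads with Trimmomatic, aligned them to GRCh38 (hg38) with HISAT2 2.1 and made the deposited estimated counts (expected counts per gene symbol, whole numbers) with StringTie 1.3.4. Not given in the sources used here were strand, read length and the handling of reads with several matches, so counts can be split among near-identical entries. An entry with a blank symbol (0.00384% of counts) was left out. Groups follow the sample titles.

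Each line was fitted alone (12 libraries) with edgeR 4.0.16 under R 4.3.3, using TMM scaling, the default filterByExpr filter (at least 10 counts) and the quasi-likelihood test, with Benjamini-Hochberg adjustment over all genes tested and a threshold of 0.05. Standard errors are the log2 fold change divided by the root of F. Members are described by shares, within-library ratios and fitted changes, without tests. Alternatives were library size scaling, DESeq2 1.42.0, limma-voom (limma 3.58.1), small RNAs left out, no filter, a mean CPM of at least 5, fits of 6 and of 36 libraries, family sums, and each library left out. Depth was 26590705 to 53538925 counts, and counting error is largest for RMRP and other genes with few counts, such as RNU6-1 (7 to 53). The fit was tested on simulated counts in which few genes changed, in both directions alike. That simulation holds no shift of scale between groups, so it does not test the choice of scaling.

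The members and lists were chosen with earlier results of these data known. Named are the members, 8 known partners (HEXIM1, LARP7, MEPCE, SRP54, POP1, MAF1, BRF1 and BRF2), up to 3 genes per list called in most comparisons with DMSO, and per member the 3 genes with the highest r of log2(CPM + 0.5) after subtraction of line means. Genes next to the members were added by position. Some items that these rules name are not reported here. Positions and sequences are from GENCODE release 44. Figures were drawn with matplotlib 3.10.9 under Python 3.11.15.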

Additional observations from a re-analysis of the deposited data

Results flagged for a closer look

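The following genes and ratios lay above DMSO in every library of one line and below DMSO in every library of another under the same drug, on TMM-scaled CPM for genes. Each value is the difference of the log2 ratios to DMSO between those lines, the difference itself was not tested, and line and exposure time differ together. The share of all genes that met this rule was not counted. In single comparisons with DMSO, 37.5 to 64% of genes tested did not overlap, so the rule alone marks nothing particular. Some sides of the listed genes were small and not called, such as MAF1 in JVM2 under idelalisib (0.1654) and RPP21 in MEC1 under fludarabine (-0.1602). Groups of 3 libraries were too small for a test of single outlying libraries.

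Among the members, RN7SL1 differed by 1.026 and RN7SL2 by 1.167 under idelalisib, above in MEC1 and below in JVM2, and RN7SK by 0.5619 under ibrutinib in the same lines. As shares of the library, RN7SL1 under idelalisib and RN7SK under ibrutinib overlapped DMSO in JVM2. The ratio of both 7SL to RN7SK under fludarabine lay below DMSO in MEC1 and differed from JVM2 by 0.762 and from EHEB by 1.103. The ratio of RN7SK to RPPH1 under idelalisib lay above DMSO in MEC1 and differed from JVM2 by 0.6222 and from EHEB by 0.599.

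Among the protein partners, EHEB lay above and MEC1 below for SRPRA under fludarabine (0.3755), for MEPCE under ibrutinib (0.7324) and idelalisib (1.408), and for HEXIM1 under ibrutinib (0.361) and idelalisib (0.6003). The same held for RPP21 under fludarabine (0.4684), for BRF1 under ibrutinib (0.6208) and idelalisib (0.7527), for BRF2 under fludarabine (0.4886) and ibrutinib (0.514), and for MAF1 under idelalisib (0.7097). EHEB lay above and JVM2 below for MEPCE under idelalisib (0.5915), for HEXIM1 under ibrutinib (0.3109), for RPP21 under fludarabine (0.9183), and for BRF2 under fludarabine (0.7908) and ibrutinib (0.9597). JVM2 lay above and MEC1 below for BRF1 under ibrutinib (0.513) and MAF1 under idelalisib (0.625), and MEC1 lay above and EHEB below for GTF3A under idelalisib (0.8041).

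Among the small RNAs, MEC1 lay above and JVM2 below for RN7SL3 under idelalisib (1.131) and for SCARNA13 under ibrutinib (1.247) and idelalisib (2.192). MEC1 lay above and EHEB below for RNY3 (2.566) and RNU5F-1 (2.081) under idelalisib.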

How the results depend on the processing

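For the 5 members together, the log2 ratio under library size scaling in place of TMM was 0.03969 against -0.2103 for fludarabine in MEC1, 0.0813 against -0.117 in JVM2 and 0.07093 against -0.03424 in EHEB. It was -0.1554 against -0.2334 for ibrutinib in JVM2, -0.04101 against -0.143 for idelalisib in JVM2, 0.06831 against -0.03056 for idelalisib in EHEB, and 0.6373 against 0.8111 for idelalisib against ibrutinib in MEC1. The other 5 comparisons moved by less than the spread between replicates, as did all 12 with DESeq2 size factors and with small RNAs left out. Leaving out single libraries moved several of the 12 by over 1.5 times or through 0. Each moved by less than that spread. With 3 libraries per group this could hardly be otherwise, so it does not show that the values are stable. For fludarabine the range was -0.3166 (without DMSO library 38) to -0.1088 (without fludarabine library 46) in MEC1, -0.1534 to -0.07287 (without the last DMSO library) in JVM2, and -0.1044 to 0.01656 (without the first and last fludarabine libraries) in EHEB. For ibrutinib it was 0.06421 (without the middle ibrutinib library) to 0.2402 in MEC1 and -0.4454 to -0.1758 (without the last and first ibrutinib libraries) in EHEB. For EHEB it was -0.07222 to 0.01611 (without the first and middle idelalisib libraries) for idelalisib, and 0.1452 to 0.4149 (without the first and last ibrutinib libraries) for idelalisib against ibrutinib. The same scale turned SRPRA from -0.1783 to 0.07106 and MAF1 from -0.1986 to 0.05079 under fludarabine in MEC1.

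The number of partner genes called for idelalisib against ibrutinib in MEC1 was 14, and 25 by library size, 8 without a filter and 4 in a fit of 6 libraries. In EHEB it was 13, and 6 without a filter and 5 in a fit of 6 libraries, and for ibrutinib against DMSO in EHEB it was 15, and 6 without a filter. Leaving out single libraries, these counts ran from 5 to 17 for idelalisib against ibrutinib in MEC1, from 2 to 6 in JVM2 (7 in full) and from 2 to 7 in EHEB, and from 5 to 8 for ibrutinib in EHEB. The cause was not tested. Of 164 calls of named genes, DESeq2 lost 1 and limma-voom 2, library size scaling lost 26 and reversed 2, and fits without a filter lost 25. No paired analysis was possible because the groups compared share no library numbers. RMRP had no more than 27 counts, so its values carry a large counting error, and near-identical entries limit RN7SL1 and RN7SL2.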
